A study of Homo sapiens with 18 samples.

Results

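Long noncoding RNAs (lncRNAs) of the nucleus and of the p53 pathway were examined in Erastin-treated U87MG glioblastoma cells. The 8 genes described were NEAT1, MALAT1, PVT1, MIR22HG, MIR34AHG, LINC-PINT, MEG3 and H19. They were matched by symbol among the 58302 rows of the deposited count table. They were taken as abundant nuclear lncRNAs and as lncRNAs known to be targets of p53 or stress. No measured value entered the rule, but the genes were chosen with earlier results of these data known. Of the 8, 6 had a count in every library and enough counts to be tested, whereas MIR22HG and H19 did not.

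The samples compared were 4 RNA-seq libraries of U87MG, an established human glioblastoma line, so every value comes from this single line. The control group was 2 libraries of cells in normal growth condition, for which the labels name no vehicle. The Erastin group was 2 libraries of cells given Erastin, an inhibitor of cystine import that induces ferroptosis, at 10 μM for 72 h. No source used here says whether replicates were separate cultures, so p-values measure the spread between these libraries, which may be technical.

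Most lncRNAs act without being translated, and many stay in the nucleus. NEAT1 is the scaffold of paraspeckles, bodies of RNA and protein between the chromosomes, and MALAT1 is concentrated in nuclear speckles, which store splicing factors. MIR34AHG, LINC-PINT, NEAT1 and PVT1 are known as transcriptional targets of p53, MIR34AHG and MIR22HG are processed into microRNAs, and MEG3 and H19 are imprinted genes expressed from the maternal chromosome.

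The libraries held between 29412656 and 31513519 counts on genes, and the 3 counts that a listing of 0 allows equal 0.0955 to 0.1003 CPM (counts relative to the TMM-scaled library total). edgeR's quasi-likelihood test compared the groups in 16751 genes, with p-values adjusted by the Benjamini-Hochberg method. A gene was said to rise or fall at an adjusted p under 0.05, and was called upregulated or downregulated when its log2 fold change was also at least 1 in size. All 8 markers of a mesenchymal glioblastoma line, such as VIM and CD44, were expressed, with a sum of 13773 to 14134 CPM in control and 6674 to 6917 CPM in Erastin libraries. Of 4 astrocyte markers, GFAP had 41 to 81 counts per library, ALDH1L1 had 6 to 22, S100B had 0 to 2 and AQP4 had 0. The label of brain tissue was thus matched by astrocyte genes only at a low level. Markers of blood cells, oligodendrocytes and epithelium each summed to under 1 CPM in every library. The neuronal list summed to 52.9 to 57.7 CPM in control and 12.9 to 13.2 CPM in Erastin libraries, nearly all of it from SYT1 and SNAP25, and the endothelial list to 4.64 to 6.18 and 1.64 to 2.07 CPM. The part of these markers in the results was not tested. In RNA from whole cultures, fewer cells of a type and less RNA per cell cannot be told apart.

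Of the 8 lncRNAs, 3 rose in Erastin-treated cells (NEAT1, MIR34AHG and PVT1), 1 fell (MEG3), 2 did not pass the test (MALAT1 and LINC-PINT) and 2 could not be tested. For comparison, 23.2% of all tested genes rose and 23.7% fell, and among the 2349 tested lncRNA genes the shares were 14.0% and 10.6%. With the threshold on the fold change, 0 of the 8 were called upregulated by edgeR (0 also at an unadjusted p under 0.05 and by DESeq2) and MEG3 was called downregulated, where 6.24% and 9.34% of all tested genes, and 9.79% and 7.92% of tested lncRNA genes, were called. The median log2 fold change of the 6 tested lncRNAs was 0.28, against −0.0026 for all tested genes and 0.0034 for tested lncRNA genes. For 4 of the 6, both Erastin libraries were above both controls, and for MEG3 they were below. Such a gap upward or downward was seen for 36.7% and 36.9% of all tested genes.

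**Figure D1:**
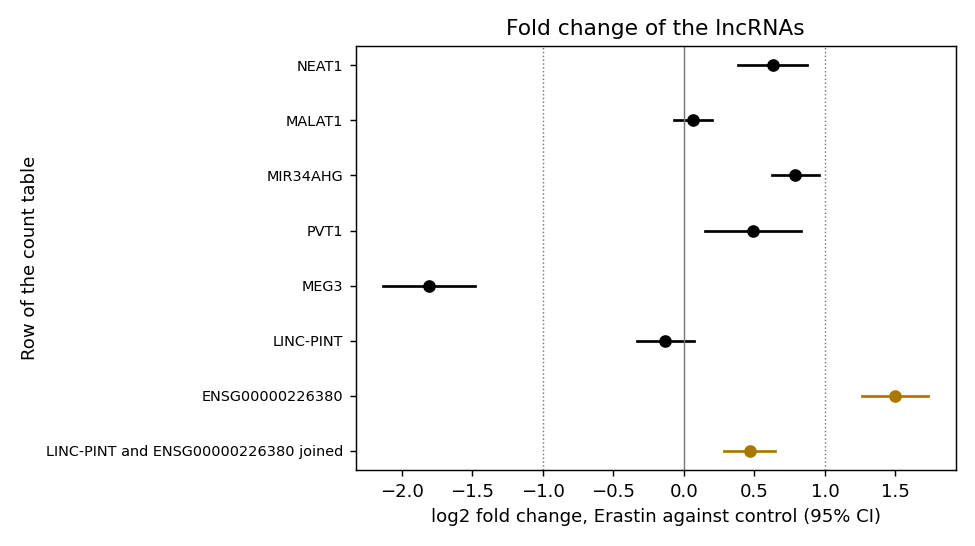
Log2 fold change of Erastin-treated against control cells (x axis) for each tested lncRNA row (y axis), with points for the edgeR estimate, lines for its 95% confidence interval and dotted lines at the fold-change threshold of 1 in either direction. MEG3 lies at −1.81, 3 lncRNAs lie between 0.49 and 0.79, and the 2 ochre rows show that the value for LINC-PINT turns from −0.13 to 0.47 when its gene model is extended.

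**Figure D2:**
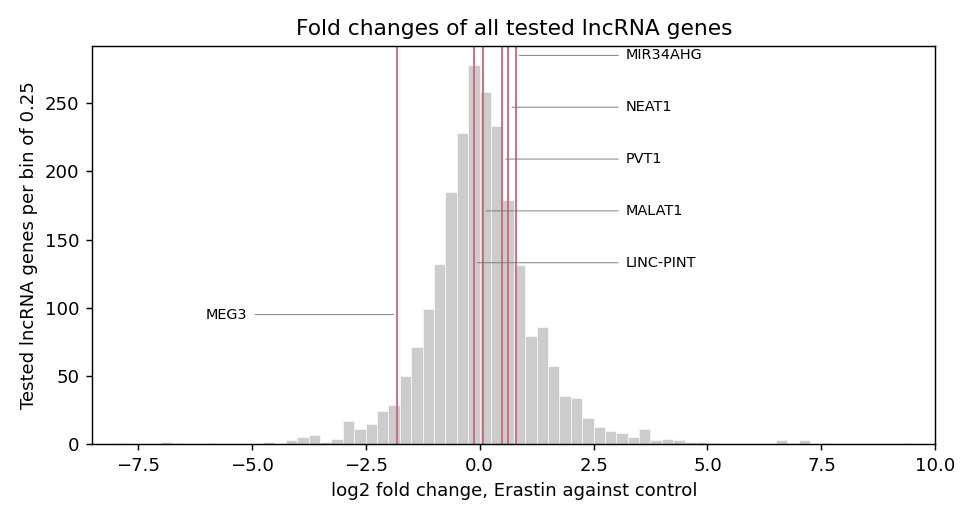
Number of tested lncRNA genes (y axis) by log2 fold change in bins of 0.25 (x axis), with red lines at the 6 tested lncRNAs. MEG3 lies in the lower tail, and the other 5 lie between −0.13 and 0.79, within the bulk of the 2349 genes.

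NEAT1 had the highest CPM of any lncRNA in both groups and rose in Erastin-treated cells. NEAT1 (ENSG00000245532) lies on the plus strand of chromosome 11 of GRCh38 from 65422774 to 65445540 and is counted as a block of 22767 exon bases without introns. The controls had 45068 and 62355 counts, and the Erastin libraries had 82629 and 82615. Thus both Erastin libraries were higher than both control libraries, while control replicate 2 lay 36.2% above control replicate 1 in CPM. In CPM, scaled by the TMM method, expression was 1741 ± 377 (SD, n = 2) for controls and 2696 ± 94.2 (SD, n = 2) after Erastin, a log2 fold change of 0.63 (standard error 0.112, 95% confidence interval 0.39 to 0.88, adjusted p = 6.29e-04 from edgeR), or 1.55-fold. The control libraries decide its size: without control replicate 1 it was 0.42, and without control replicate 2 it was 0.86, each with a single control library left.

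NEAT1 alone took 0.143% and 0.199% of all counts in controls and 0.281% and 0.267% with Erastin. The 95% Wilson intervals of these shares ran from 0.142% to 0.144%, 0.198% to 0.201%, 0.279% to 0.283% and 0.265% to 0.269%. They cover counting error only and treat reads as independent. Since both reads of a pair were counted, they are likely too narrow even for that. Ranked by CPM per kilobase of exon, which for NEAT1 is the whole block, NEAT1 was at place 415 of all genes in controls and 226 with Erastin. Among the lncRNAs, NEAT1 was at places 3 and 2. It shares exons with short RNA genes, including MIR612, but these rows were listed at 0 and 97.9% of its exon bases belong to no other gene.

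MALAT1, a structural lncRNA of nuclear speckles, did not pass the test. MALAT1 (ENSG00000251562) lies on the same strand of chromosome 11, from 65497762 to 65506516, 52.2 kb downstream of NEAT1. Its libraries had 13539 and 14250 counts in control and 14163 and 14795 in Erastin-treated cells. In CPM both Erastin libraries were slightly above both controls, with 451 ± 11.3 (SD, n = 2) against 472 ± 1.86 (SD, n = 2). The log2 fold change of 0.07 (95% confidence interval −0.07 to 0.20) had an adjusted p of 0.407 from edgeR.

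The ratio of NEAT1 to MALAT1 counts needs no scaling between libraries. On the log2 scale it was 1.73 and 2.13 in controls and 2.54 and 2.48 with Erastin. The groups did not overlap, and the means differed by 0.58. With 2 libraries a group, the smallest two-sided p of an exact permutation test is 0.33, so this ratio is given without a test.

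**Figure D3:**
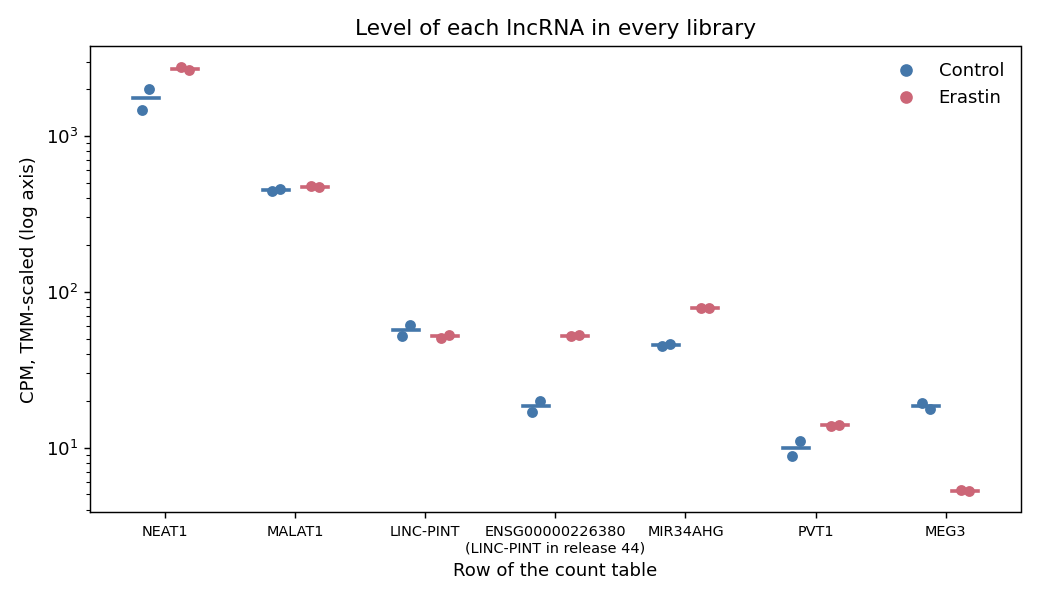
CPM (log y axis) of each row of the count table (x axis) in the 2 control and 2 Erastin libraries, with points for libraries and short lines for group means. The Erastin points lie above the control points for NEAT1, MIR34AHG, PVT1, ENSG00000226380 and, by a small margin, MALAT1, and below them for MEG3.

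MIR34AHG had the smallest adjusted p of the lncRNAs that rose. This gene is the host of miR-34a, a microRNA that p53 activates and that represses cell-cycle and survival genes. MIR34AHG (ENSG00000228526) lies on the minus strand of chromosome 1 from 9148011 to 9196983. The sequences processed from it are shown with their seeds (bases 2 to 8, the part that pairs with target RNAs) in capitals, as listed by RefSeq for GRCh38.p14; both lie in an exon of the gene.
miR-34a-5p: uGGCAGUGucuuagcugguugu
miR-34a-3p: cAAUCAGCaaguauacugcccu

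MIR34AHG had 1367 and 1436 counts in controls and 2360 and 2464 with Erastin. Both Erastin libraries were well above both controls, and replicates lay close together. The mean level was 45.5 ± 1.07 CPM (SD, n = 2) without and 78.7 ± 0.340 CPM (SD, n = 2) with Erastin, giving a log2 fold change of 0.79 (standard error 0.0760, 95% confidence interval 0.62 to 0.96, adjusted p = 5.11e-06 from edgeR), or 1.73-fold. Leaving out single libraries gave 0.76 to 0.81. The row of MIR34A itself was listed at 0 in all 4 libraries, and the mature microRNA was not measured here.

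LNCTAM34A, a lncRNA on the opposite strand, shares 431 bases with the exons of MIR34AHG, 9.43% of them. It had 31 and 59 counts in controls and 119 and 150 with Erastin. It rose by 1.58 on the log2 scale (adjusted p = 0.00209 from edgeR), so both lncRNAs of this overlapping pair rose. The counts were made without strand, and reads on the shared bases were left out of both rows, so each value comes from bases that the other gene lacks.

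The RefSeq promoter of MIR34AHG (250 bases before to 50 after the annotated start, chr1:9182289-9182588, minus strand of GRCh38.p14) is shown because the gene rose together with its antisense partner and is a known p53 target.
MIR34AHG promoter: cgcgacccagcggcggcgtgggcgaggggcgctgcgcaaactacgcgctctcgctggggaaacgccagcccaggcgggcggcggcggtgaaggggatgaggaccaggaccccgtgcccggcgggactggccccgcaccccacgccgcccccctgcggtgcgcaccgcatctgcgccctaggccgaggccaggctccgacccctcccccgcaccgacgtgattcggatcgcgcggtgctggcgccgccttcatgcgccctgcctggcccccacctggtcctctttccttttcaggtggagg

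Motifs were searched on both strands of this window: TGACGTCA (cAMP response element), TGATGNAA (element of ATF4 with C/EBP), TGACNNNGC (antioxidant response element) and the p53 decamer. None of them is spelled in it, which is why the whole sequence is in lower case. The window lies within the span of the row, whose upstream end is at 9196983, and bases of this gene outside the window were not searched. Among all 35116 RefSeq promoter windows of this length, 1.85%, 3.62%, 13.3% and 6.63% hold the 4 motifs in that order. The window is rich in bases G and C (75%, against a median of 58.7% over all windows). Of the 8 lncRNAs, 6 had at least 1 window in the RefSeq table, and NEAT1 and PVT1 had none.

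PVT1, a lncRNA next to the oncogene MYC, rose by a smaller amount. PVT1 (ENSG00000249859) lies on the plus strand of chromosome 8 from 127794533 to 128101253. It had 268 and 342 counts in controls and 412 and 441 with Erastin. Both Erastin libraries were higher than both controls, with 9.89 ± 1.59 CPM (SD, n = 2) against 13.9 ± 0.185 CPM (SD, n = 2), and the log2 fold change was 0.49 (standard error 0.155, 95% confidence interval 0.15 to 0.83, adjusted p = 0.0214 from edgeR), or 1.41-fold. The call did not hold under several alternatives: the adjusted p was 0.0541 with DESeq2, and 0.134, 0.0694 and 0.0799 from edgeR without control replicate 1, Erastin replicate 1 and Erastin replicate 2, each time with the lone library assumed to vary like the other group.

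MYC, a transcription factor of growth genes, ends 53.1 kb upstream of PVT1 and moved the other way. MYC had 1871 and 2179 counts in controls and 1086 and 1097 with Erastin. Both Erastin libraries were lower, with a fall of 0.88 on the log2 scale (SE 0.0918, adjusted p = 9.87e-06 from edgeR). The log2 ratio of PVT1 to MYC counts was −2.80 and −2.67 in controls and −1.40 and −1.31 with Erastin, a difference of 1.38 between the means.

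MEG3 showed the largest change of the 6 tested lncRNAs. It is a maternally expressed lncRNA of the DLK1 locus, described as a growth inhibitor that is often silenced in tumors. MEG3 (ENSG00000214548) lies on the plus strand of chromosome 14 from 100779410 to 100861031. It had 592 and 548 counts in controls and 159 and 165 with Erastin. Both Erastin libraries were far below both controls, with no overlap. The mean level was 18.5 ± 1.22 CPM (SD, n = 2) without and 5.28 ± 0.0456 CPM (SD, n = 2) with Erastin, giving a log2 fold change of −1.81 (standard error 0.149, 95% confidence interval −2.13 to −1.48, adjusted p = 1.42e-06 from edgeR), so expression was 3.50-fold lower. Leaving out single libraries gave −1.88 to −1.74, and MEG3 remained called under all 15 alternatives.

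The MEG3 promoter listed first by RefSeq (chr14:100825858-100826157, plus strand of GRCh38.p14) lies within the span of the row and is shown because MEG3 was the gene called. The capitals mark TGACGTCA, the cAMP response element of the known MEG3 promoter, which reads the same on both strands and starts at base 201 of the window.
MEG3 promoter: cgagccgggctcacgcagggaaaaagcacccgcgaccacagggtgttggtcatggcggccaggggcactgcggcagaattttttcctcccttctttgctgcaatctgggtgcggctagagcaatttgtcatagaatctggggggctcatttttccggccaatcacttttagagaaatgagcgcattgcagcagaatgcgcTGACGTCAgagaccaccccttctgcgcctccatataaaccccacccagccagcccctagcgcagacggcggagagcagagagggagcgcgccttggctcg

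The other 3 motifs are not spelled in the MEG3 window, and 1.85% of all promoter windows hold TGACGTCA. The match is a description of the sequence, and binding was not measured. MEG8 and MEG9, lncRNAs downstream in the same imprinted cluster, had 1 to 4 and 0 to 8 counts per library and were not tested. DLK1, the paternally expressed gene of the cluster, had 1 count in control replicate 1 and 0 elsewhere, so no ratio to MEG3 was computed.

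LINC-PINT, a p53-induced lncRNA known to restrain proliferation and to bind the polycomb repressive complex 2, did not pass the test as the table defines it. LINC-PINT (ENSG00000231721) lies on the minus strand of chromosome 7 from 130941760 to 131110176. It had 1601 and 1900 counts in controls and 1512 and 1667 with Erastin. The groups overlapped, with 56.8 ± 6.22 CPM (SD, n = 2) for controls and 51.8 ± 1.77 CPM (SD, n = 2) after Erastin. Its log2 fold change of −0.13 did not pass (95% confidence interval −0.33 to 0.07, adjusted p = 0.266 from edgeR). Without control replicate 1 it was −0.24 (adjusted p = 0.0402 from edgeR), but this leaves a single control library, which is assumed to vary like the Erastin libraries.

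However, the value of LINC-PINT depends on where the gene is taken to end. The table follows Ensembl release 90, which lists a further gene, ENSG00000226380, on the same strand 28450 bases downstream, from 130876809 to 130913310. GENCODE release 44 no longer has that identifier, and all 6619 of its exon bases belong there to exons of LINC-PINT, which spans 130791264 to 131110176. Rows that later models join in this way were looked for after ENSG00000226380 had been seen to rise beside LINC-PINT. ENSG00000226380 had 517 and 620 counts in controls and 1544 and 1649 with Erastin. Both Erastin libraries were far above both controls, with 18.4 ± 2.16 CPM (SD, n = 2) against 52.1 ± 0.609 CPM (SD, n = 2). Its log2 fold change was 1.50 (standard error 0.108, 95% confidence interval 1.26 to 1.73, adjusted p = 4.55e-07 from edgeR), or 2.82-fold, and it was called upregulated.

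With both rows joined, LINC-PINT had 2118 and 2520 counts in controls and 3056 and 3316 with Erastin. The groups then did not overlap, and the log2 fold change was 0.47 (standard error 0.0840, 95% confidence interval 0.28 to 0.65, adjusted p = 7.17e-04 from edgeR). The joined gene rose, whereas the row named LINC-PINT in the table had a fold change of the opposite sign that did not pass the test. With the rows joined, 4 of the 8 lncRNAs rose in place of 3. The 2 rows hold 4515 and 6619 exon bases, whereas release 44 gives LINC-PINT 27290. Much of the later model is therefore not in the joined counts, and its fold change over the whole model was not measured. Whether the counted reads come from 1 transcript or from transcripts with separate starts was not tested.

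The same release joins ENSG00000281937 to MIR34AHG and ENSG00000276443 to PVT1. The former had 29 and 31 counts in controls and 24 and 31 with Erastin, and adding it moved the log2 fold change of MIR34AHG only from 0.79 to 0.78. The latter had 0 counts in every library, and PVT1 kept its 0.49.

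RefSeq lists a start of LINC-PINT close to the upstream end of ENSG00000226380 as well as starts near the upstream end of the whole gene. The promoter window of that internal start (chr7:130913261-130913560, minus strand of GRCh38.p14) is shown because the row that begins there rose; none of the 4 motifs is spelled in it.
LINC-PINT internal promoter: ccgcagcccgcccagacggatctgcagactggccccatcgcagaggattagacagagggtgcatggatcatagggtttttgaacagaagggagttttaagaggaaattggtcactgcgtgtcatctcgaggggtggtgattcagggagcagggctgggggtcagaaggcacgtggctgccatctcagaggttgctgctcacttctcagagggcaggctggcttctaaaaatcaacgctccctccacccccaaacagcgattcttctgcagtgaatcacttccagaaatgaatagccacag

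In comparison, the window at the upstream start (chr7:131109876-131110175, minus strand) has 70.3% of bases G and C, against 54.7% in the internal window, and holds 1 match to TGACNNNGC, which 13.3% of all windows hold.

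The downstream end of ENSG00000226380 carries the genes of miR-29b-1 and miR-29a, microRNAs known for targeting collagen and other matrix genes. The matures of MIR29B1 lie in its exon, and those of MIR29A lie 2 bases beyond its end. Their 3p forms share 1 seed (AGCACCA, in capitals), which differs from both miR-34a seeds.
miR-29a-3p: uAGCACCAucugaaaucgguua
miR-29b-3p: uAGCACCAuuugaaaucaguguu

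The row of MIR29B1 was listed at 0, and that of MIR29A had between 0 and 6 counts per library, so nothing can be said of the mature forms. The same miR-29b-3p is also made from a gene on chromosome 1.

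MIR22HG, the host of miR-22 and a gene known to respond to stress, could not be measured. MIR22HG (ENSG00000186594) lies on the minus strand of chromosome 17 from 1711493 to 1717174. It was listed at 0 in both control libraries and in Erastin replicate 1, and at 1 in Erastin replicate 2. All 31-base words of its exons (100%) recur on the alternate scaffolds of the genome, and reads that match more than 1 place were not counted. PRPF8, a core spliceosome gene that every cell uses, lies 26.6 kb away and was also listed at 0 in all 4 libraries. Of the 7 protein-coding genes within 250 kb with at least 90% of their words on such scaffolds, 4 were at 0. Across the table, 56.9% of 713 such protein-coding genes were at 0 in every library, against 17.7% of 18225 genes with under 10% of their words there. The listing at 0 therefore gives no level for MIR22HG. Its microRNAs, whose seeds are shared with neither miR-34a nor miR-29, are given for identity.
miR-22-3p: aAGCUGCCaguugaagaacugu
miR-22-5p: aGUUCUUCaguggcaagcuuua

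H19, a maternally expressed lncRNA that is abundant in the fetus, was not detected. H19 (ENSG00000130600) lies on the minus strand of chromosome 11 from 1995163 to 2001470 and had 0 counts in all 4 libraries. None of its words (0%) recur on alternate scaffolds, so a level of up to 3 counts, or 0.0955 to 0.1003 CPM, is what this depth allows. IGF2, the growth factor gene that shares its imprinting control with H19, had 0 counts in controls and 4 and 2 with Erastin.

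Levels of different genes were compared in CPM per kilobase of exon. In control cells the order was NEAT1 with 76.5, MALAT1 with 51.5, LINC-PINT with 12.6, MIR34AHG with 9.95, PVT1 with 1.80 and MEG3 with 1.17. In Erastin-treated cells it was NEAT1 with 118, MALAT1 with 53.9, MIR34AHG with 17.2, LINC-PINT with 11.5, PVT1 with 2.53 and MEG3 with 0.335. The libraries of each adjacent pair among these 6 did not overlap in either group. LINC-PINT and MIR34AHG exchanged places between the groups. With the longest transcript as the length, MIR34AHG was already above LINC-PINT in control cells (10.2 against 8.85), so this exchange depends on the length used. MEG3 and PVT1 lay 1.53-fold apart in control and 7.55-fold apart in Erastin-treated cells. With the longest transcript as the length, PVT1 was at 4.04 and MEG3 at 1.42 in control, and at 5.68 and 0.406 in Erastin-treated cells, so the size of these gaps also depends on the length.

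**Figure D4:**
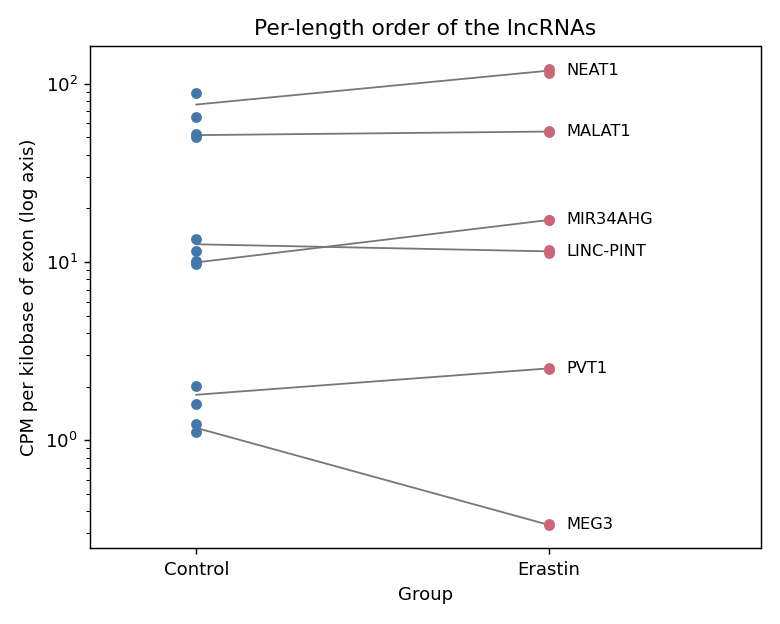
Level in CPM per kilobase of exon (log y axis) of the 6 tested lncRNAs in control and Erastin libraries (x axis), with points for libraries and lines joining the group means. NEAT1 and MALAT1 stay at the top, MIR34AHG passes LINC-PINT, and MEG3 drops away from PVT1.

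Genes that rose and genes that fell both lay around NEAT1, MALAT1, MIR34AHG and MIR22HG. Around LINC-PINT 1 gene fell, and the only gene that rose was ENSG00000226380, which later gene models make part of LINC-PINT. Within 250 kb of NEAT1, 22 genes were tested, of which 5 rose, 4 fell and 13 did not pass, at a median log2 fold change of 0.24. These counts are near the 23.2% and 23.7% of all tested genes that rose and fell, so they are not particular to the neighbors. FRMD8, 9.2 kb upstream, rose by 0.74 (adjusted p = 3.26e-05 from edgeR), whereas SLC25A45 was at 0.46 and did not pass (adjusted p = 0.0681 from edgeR). Around MALAT1, 7 of 20 tested genes rose and 4 fell. LTBP3, a regulator of TGF-beta storage 32.3 kb downstream, fell by 0.94 on the log2 scale (adjusted p = 3.71e-07 from edgeR). NEAT1 and MALAT1 share most of these neighbors, since they lie 52.2 kb apart.

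Around MIR34AHG, 3 of 7 tested genes rose, 1 fell and 3 did not pass, where 23.2% of all tested genes rose and 23.7% fell. Among these 7 are LNCTAM34A, the antisense partner that rose, and ENSG00000281937, which did not pass and which later models join to MIR34AHG. GPR157 was at 0.24 and did not pass (adjusted p = 0.114 from edgeR), and H6PD, an enzyme that makes NADPH in the endoplasmic reticulum, fell by 0.43 on the log2 scale (adjusted p = 2.79e-04 from edgeR). Next to LINC-PINT, MKLN1 on the opposite strand shares 81 bases with its exons and had a log2 fold change of 0.01 (adjusted p = 0.917 from edgeR). Of the 3 tested genes within 250 kb of MEG3, WDR25 rose by 0.44 (adjusted p = 0.0281 from edgeR), a call that was lost with DESeq2, where 0 of the 3 passed, and BEGAIN was at −0.05 and did not pass (adjusted p = 0.827 from edgeR). No tested neighbor of MEG3 fell (0 of 3 by edgeR, 0 at an unadjusted p under 0.05 and 0 by DESeq2). WDR81, which overlaps the span of MIR22HG, rose by 0.51 (adjusted p = 0.0126 from edgeR), although 96.4% of its words recur on alternate scaffolds, and SERPINF1 was at −0.15. Of 7 tested neighbors of H19, 0 passed the test in edgeR, 0 had an unadjusted p under 0.05 and 0 passed in DESeq2, with LSP1 at −1.01 and MRPL23 at −0.14.

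**Figure D5:**
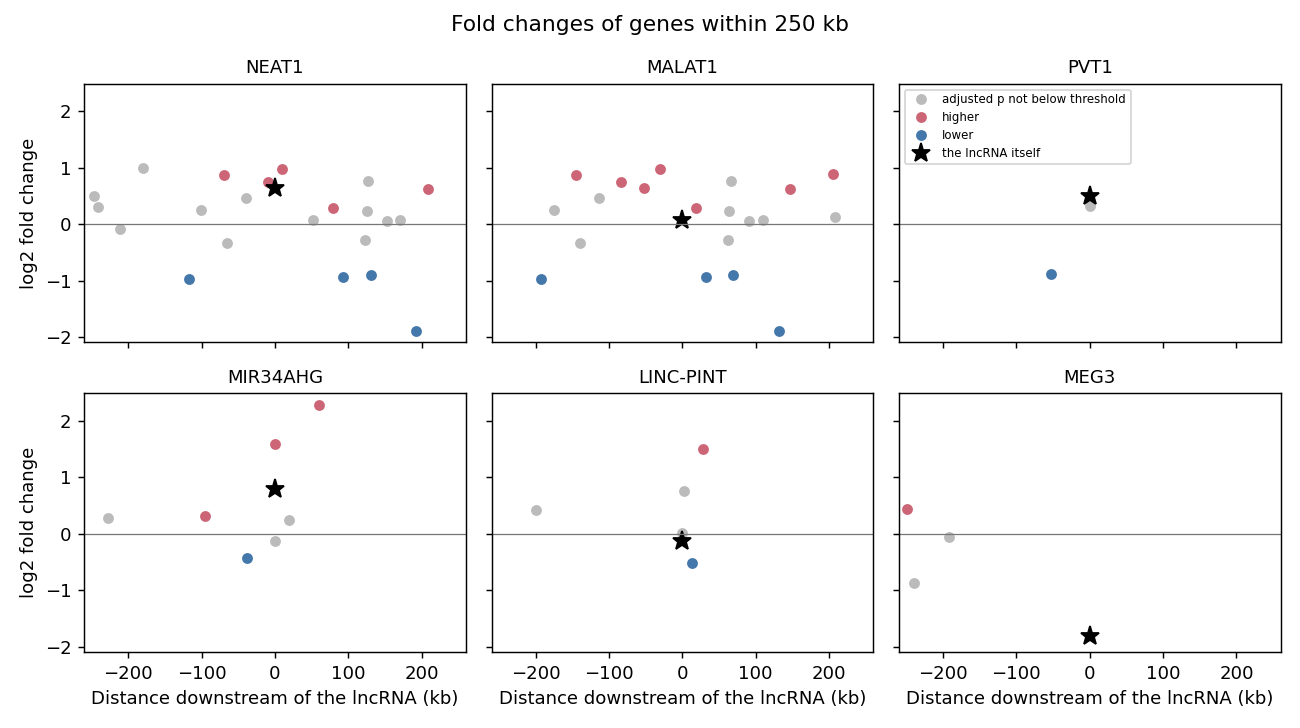
Log2 fold change (y axis) of tested genes within 250 kb of 6 lncRNAs, by distance downstream of the lncRNA in kb (x axis), with stars for the lncRNA itself and colors for genes that rose, fell or did not pass. Genes that rose and fell lie side by side around NEAT1 and MALAT1, and MEG3 lies well below its 3 tested neighbors.

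For each tested lncRNA, the 2 genes with the nearest pattern were found by the Euclidean distance of centred log2(CPM + 0.5) values over the 4 libraries. They were ZNHIT6 and LINC00562 for NEAT1 (distances 0.023 and 0.030), BCLAF1 and METTL2B for MALAT1 (0.0081 and 0.018), and ENSG00000228031 and RWDD4P1 for PVT1 (0.040 and 0.042). They were CYP1B1 and RAB18 for MIR34AHG (0.016 and 0.032), DDX17 and ZBTB25 for LINC-PINT (0.015 and 0.020), and CRIP2 and SEMA7A for MEG3 (0.031 and 0.036). LINC00562, with 0 to 13 counts per library, and ENSG00000228031, with 2 to 13, lie near the pseudocount, which flattens their differences, and their log2 fold changes of 2.03 and 1.46 did not pass (adjusted p = 0.137 and 0.186 from edgeR). Such likeness was common over 4 libraries: 3527 tested genes lay within 0.25 of MALAT1, 1018 of MIR34AHG, 364 of NEAT1 and 125 of MEG3.

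Other lncRNAs known as p53 or stress targets mostly rose. Of 15 on the list, 11 were in the table and 9 were tested, of which 6 rose, 1 fell and 2 did not pass, with a median log2 fold change of 0.84. Among all tested lncRNA genes, 14.0% rose and 10.6% fell. PINCR, which modulates the p53 response, had 10 and 12 counts in controls and 118 and 98 with Erastin, a log2 fold change of 3.29 (adjusted p = 2.71e-05 from edgeR). TP53TG1 had 39 and 49 against 164 and 170 counts, a log2 fold change of 1.93 (adjusted p = 1.05e-04 from edgeR). LNCTAM34A was the third one called upregulated. NORAD, PURPL and GAS5, named after their values were seen, rose by 0.84, 0.91 and 0.53, and DANCR fell by 0.60 on the log2 scale.

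A further list held 20 other lncRNAs taken as nuclear, whose place in the cell was not measured here, and 13 were tested. Of these, 2 rose, 6 fell and 5 did not pass, where 14.0% of tested lncRNA genes rose and 10.6% fell. The median log2 fold change was −0.48, and 4 were called downregulated, against 7.92% of tested lncRNA genes. DLEU2, the host of miR-15a and miR-16-1, had 146 and 196 counts in controls and 51 and 50 with Erastin. Its log2 fold change was −1.75 (adjusted p = 2.36e-04 from edgeR), and those of HOXA-AS2 and FIRRE were −1.28 and −1.14 (adjusted p = 0.0449 and 0.0148 from edgeR). KCNQ1OT1, another imprinted lncRNA of chromosome 11, was the fourth, with −1.08.

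Genes of the paraspeckle proteins that assemble on NEAT1 mostly fell. Of 15 tested, 1 rose, 11 fell and 3 did not pass, where 23.2% of all tested genes rose and 23.7% fell. Their median log2 fold change was −0.32, with 0 called in either direction (0 also at an unadjusted p under 0.05 and by DESeq2). Among the 3 that did not pass was MATR3, named after its values were seen, with only 62 to 80 counts per library. SFPQ and NONO, which bind NEAT1 directly and were named after their values were seen, fell by 0.69 and 0.27 on the log2 scale (adjusted p = 4.31e-06 and 0.00494 from edgeR), and PSPC1, their paralog, rose by 0.69 (adjusted p = 2.22e-04 from edgeR). Of 20 genes of nuclear speckle proteins, 2 rose, 9 fell and 9 did not pass, with a median of −0.15, against the same shares.

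Protein-coding p53 targets rose widely: 28 of 30 rose, 0 fell (0 also at an unadjusted p under 0.05 and by DESeq2) and 2 did not pass. Their median log2 fold change was 1.46, with 25 called upregulated, against 23.2% of all tested genes that rose and 6.24% that were called. BTG2, TP53I3 and GDF15 rose most, by 3.82, 3.21 and 2.90. Of 11 genes of the polycomb repressive complex 2, which LINC-PINT binds, 2 rose, 5 fell and 4 did not pass, with a median of 0.05, where 23.2% of all tested genes rose and 23.7% fell. PHF19, an accessory subunit, and EZH2, a catalytic subunit, were called downregulated at −1.85 and −1.03 (adjusted p = 7.61e-08 and 1.52e-05 from edgeR). Across all tested genes, 9.34% were called downregulated. The 2 that rose, named after their values were seen, were EZH1, also a catalytic subunit, at 0.70 and AEBP2 at 0.28 (adjusted p = 8.63e-05 and 0.0187 from edgeR). PHF1, which did not pass and was also named afterwards, had 99.0% of its words on alternate scaffolds and 13 to 392 counts per library.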

How the data were processed

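The authors sequenced 4 libraries of U87MG RNA, and raw counts of reads per gene were deposited without normalization. Per the file header they were made by featureCounts 2.0.3 (2.0.4 in the submitters' processing notes) with Ensembl release 90 on GRCh38, without strand, after alignment with HISAT2 2.1.0. The methods name htseq-count. Both reads of a pair counted on their own, and reads matching more than 1 place or gene were left out. The deposited values were tested for decimals of estimated counts, of which there were 0. Deposited exon lengths gave CPM per kilobase. ChIP-seq and HiChIP samples were not analysed here.

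Groups were compared by edgeR 4.0.16 under R 4.3.3 (TMM, filterByExpr with a minimum of 10, two-sided quasi-likelihood test, Benjamini-Hochberg adjustment over 16751 genes). What edgeR terms the coefficient of biological variation was 10.3%, estimated between these libraries, whose spread may be technical. Thresholds were those of the study's methods. On simulated data with 200 changed genes, edgeR recovered 190 and DESeq2 182, with 0 false calls each. Recovery of fold changes as small as those of the lncRNAs that rose was not tested. Promoters and miRNAs came from RefSeq (GRCh38.p14), and gene types from GENCODE release 44. Neighbors were genes within 250 kb. The alternatives included DESeq2 1.42.0, other scalings and filters, a replicate block, glmTreat, thinning and leaving out each library. Joining rows and removing genes on 261 alternate scaffolds were alternatives chosen after seeing the data.

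The lncRNAs, lists and tests were chosen with earlier results of these data known. Genes named were the 8 lncRNAs, genes overlapping them, the 2 nearest tested protein-coding neighbors of each with MYC, IGF2 and DLK1, the 2 genes of nearest pattern, and the 3 largest changes among called genes of each list. A gene that this rule names is not reported here. Others are said to have been named after their values were seen, including MEG8, MEG9, SYT1, SNAP25, KCNQ1OT1, PRPF8 and the rows that later gene models join.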

Additional observations from a re-analysis of the deposited data

How the results depend on the processing

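Of the 15 alternatives for the fold changes, 1 reversed a direction: with ENSG00000226380 joined to LINC-PINT as in the later gene models, LINC-PINT had a log2 fold change of 0.47 in place of −0.13, and that row's own value was 1.50. MEG3 and MALAT1 kept direction and side of the threshold in all 15, and NEAT1 and MIR34AHG in all but glmTreat, which tests the fold change against the threshold itself. PVT1 lost its adjusted p under 0.05 in 5 of 15. The number of the 8 called upregulated stayed 0, and called downregulated 1, under every alternative, but the number that rose was 0 with glmTreat in place of 3 and lay between 2 and 3 with each library left out. The number that fell lay between 1 and 2 with each library left out, as LINC-PINT passed without control replicate 1, where a lone control library is assumed to vary like the Erastin libraries. With glmTreat, 377 genes were called upregulated and 748 downregulated, 71 and 40 of them lncRNA genes. With at least 10 counts in every library, 145 and 120 lncRNA genes were called in place of 230 and 186, as fewer genes were tested (14579).

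The labels number the replicates without naming a pairing, and deviations of same-numbered libraries had a correlation of 0.0203 across genes. With the replicate block, 1039 genes were called upregulated and 1568 downregulated, 227 and 188 of them lncRNA genes, and the 8 lncRNAs gave 0 and 1 called and 3 and 1 past the adjusted p. MIR34AHG was at 0.79, MEG3 at −1.81, NEAT1 at 0.65, PVT1 at 0.50, MALAT1 at 0.07 and LINC-PINT at −0.13 with the block. MIR22HG and H19 had 0 to 1 counts per library and allow no comparison at this depth, while halving the counts or thinning changed no call of PVT1 or MEG3.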
